A study of Mus musculus with 13 samples.

Results

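The 9 genes described here, Retsat, Lrat, Rbp4, Aldh1a1, Aldh1a2, Rdh16, Cyp26a1, Rarb and Dhrs3, store, carry, oxidize, break down or respond to vitamin A. All 9 were found among the 23019 genes that the 3 deposited count tables share. They were chosen by name from the vitamin A pathway with their measured values in the comparisons below already known, so their group differences are given as a description. Where the fit across all genes called one of them, the call is stated as part of that description and is not independent evidence. Livers came from male C57 mice of 3 month in 3 groups. The 5 no BDL mice were non treated. In the other mice the bile duct was ligated (BDL), a surgical model of cholestasis, and 4 received a control oligonucleotide (miR-Ctrl BDL) and 4 an inhibitor of miR-873-5p (anti-miR-873 BDL). According to the methods of the study, 60 µg per mouse was injected into the tail vein on day 3 and day 5 after ligation and the liver was taken on day 7. Neither a sham operation nor an injection is described for the no BDL mice, so the ligation and the injection cannot be told apart in a comparison with them. Whole liver RNA was sequenced to between 12185333 and 19689037 counted reads per mouse.

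Vitamin A reaches the liver as retinyl esters and retinol. Hepatocytes release it to plasma bound to retinol-binding protein, and hepatic stellate cells keep most of the body's store as retinyl esters in lipid droplets, which they lose when they turn into myofibroblasts. Retinol is oxidized reversibly to retinal and then irreversibly to retinoic acid, which activates nuclear receptors and induces the enzyme that destroys it.

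Retinoic acid receptors bind pairs of a short half-site, and the promoters of 2 of the 9 genes, both of them textbook retinoic acid targets, held such a pair. A half-site was the consensus AGGTCA or one of its variants AGTTCA or likewise GGTTCA or likewise GGGTCA. The motif searched was a half-site, 5 bases of any kind and again a half-site, on both strands, in RefSeq windows of 250 bases before to 50 after each annotated start (GRCm38.p6). It was present in 32 of 32851 windows, 0.0974%, and in 2 of the 13 windows of the 9 genes. With a spacer of 2 bases or of 1 base, 0 of the 13 windows held a pair. The matches are shown because they mark which of these genes carry the classical element, with the half-sites in capitals and the spacer in lower case. That of Rarb lies at chr14:16575513-16575529 on the gene's own strand (minus), at positions -53 to -37 from the transcript start that the window uses, base 16575476, which lies inside the span of the gene given with its values. That of Cyp26a1 lies at chr19:37697776-37697792 on the strand opposite to the gene, at positions -32 to -16 from a window start at base 37697808, which likewise lies inside the annotated span. Each is written 5′ to 3′ on the strand that holds it.
Rarb: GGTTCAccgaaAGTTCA
Cyp26a1: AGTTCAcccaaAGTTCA

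The inhibited microRNA is shown with the only match to its seed found in the 9 genes. Mature mmu-miR-873a-5p (RefSeq, GRCm38.p6, chr4:36668556-36668576, minus strand) has its seed, bases 2 to 8, in capitals. The word complementary to the seed, GTTCCTG, occurred in the longest GENCODE M21 3′ UTR of 2972 of 21685 genes, 13.7%, and in 1 of the 9 genes, Rdh16. The Rdh16 match is printed with flanking bases (GRCm38, chr10:127814100-127814128, plus strand) and the complementary word in capitals. A match of letters is no evidence of binding.
mmu-miR-873a-5p: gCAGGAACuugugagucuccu
Rdh16: tggaaggttcaGTTCCTGgtggtgaaacc

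Levels are given as normalized counts, that is CPM after TMM scaling of all 13 mice together. Divided by exon length, the normalized counts per kilobase of the 9 genes in no BDL liver (± SD, n = 5) came in the following order. Rbp4 stood first at 2166 ± 372 and Aldh1a1 was next at 226 ± 33.6. Retsat at 59.9 ± 14.4 and Dhrs3 at 48.7 ± 10.9 had spreads that overlapped. Rdh16 was at 19.3 ± 7.07. Cyp26a1 at 6.33 ± 7.01 overlapped Rdh16, Lrat at 2.51 ± 1.28, Rarb and Aldh1a2, so its place in the order is not settled. Rarb at 0.593 ± 0.234 and Aldh1a2 at 0.0977 ± 0.0493 were the lowest, and Aldh1a2 rested on 1 to 4 reads per no BDL mouse.

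One mouse in each BDL group stood apart from the other 3 mice of its group, and the study's own table of the BDL groups against each other leaves both out. These are miR-Ctrl BDL mouse 3 and anti-miR-873 BDL mouse 2. Mouse 3 lay above the other 3 miR-Ctrl BDL mice in 3 of the 9 genes, below them in 4 and within their range in 2. Mouse 2 lay above the other 3 anti-miR-873 BDL mice in 3 genes and below them in 6. The genes above were the same in both mice, Retsat, Rbp4 and Rdh16. Lrat, Cyp26a1, Rarb and Dhrs3 were below in both. On a log2 scale, Retsat in mouse 3 was 3.19 above the mean of the other 3 mice and in mouse 2 it was 1.86 above. The comparisons of the 9 genes with no BDL mice are therefore given with and without the mouse in question. For further genes the calls that changed without it are given, and for markers the changed counts and the lost calls.

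**Figure D1:**
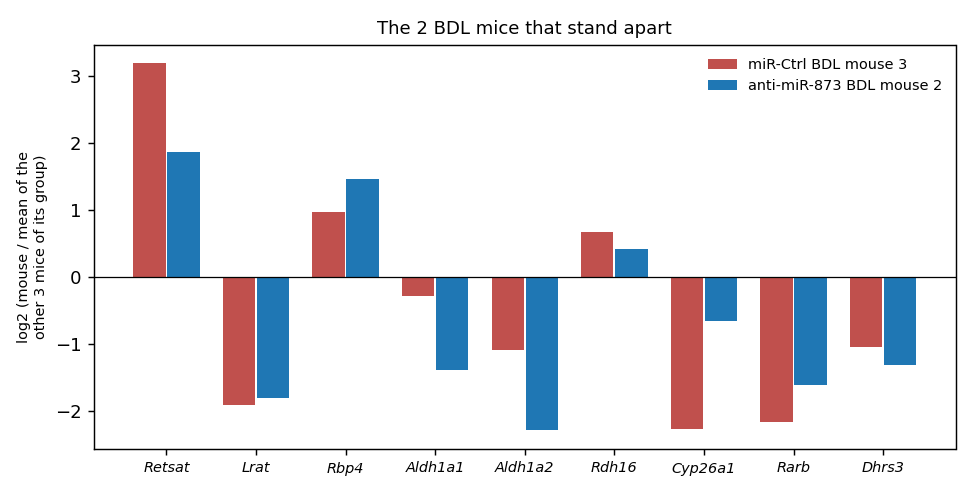
Log2 ratio of each of the 2 BDL mice that stood apart to the mean normalized count of the other 3 mice of its group, for the 9 genes. Retsat, Rbp4 and Rdh16 point upward in both mice, and Lrat, Cyp26a1, Rarb and Dhrs3 point downward in both.

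In the comparison of miR-Ctrl BDL with no BDL, which asks what ligation with the control oligonucleotide changed, edgeR's quasi-likelihood test called 35.7% of the 13072 genes tested at an adjusted p of 0.05, 19.1% higher and 16.6% lower. Of the 9 genes, 8 passed the filter on low counts, 3 were called lower (Rbp4, Aldh1a1 and Rdh16) and 0 higher. Without mouse 3, all 9 passed the filter. Then 5 were called lower, Retsat and Dhrs3 having joined these, against 20.1% of all genes tested, and 1 higher, Rarb, against 22.2%. Aldh1a2 then passed the filter through the BDL mice alone, where it is high, so its call as higher is left out of that count. In the comparison of anti-miR-873 BDL with no BDL, 21.5% of 13130 genes were called, 13.1% higher and 8.44% lower. Of the 9 genes, 8 were tested and 0 were called, with 2 at an unadjusted p under 0.05, where 4754 of all genes were. DESeq2 also called 0 of them and 27.6% of all genes. Without mouse 2, 2 were called lower (Retsat and Rbp4, background 13.4%) and 1 higher (Rarb, background 18.4%), with Aldh1a2 left out for the same reason. Since the genes were chosen with these contrasts known, nothing is read from the counts against the background.

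Values of the 4 miR-Ctrl BDL mice and the 5 no BDL mice did not overlap in 1 of the 8 genes tested, Aldh1a1, where the share over all genes tested was 29.6%. Without mouse 3, Retsat, Rbp4 and Aldh1a1 lay below without overlap and Rarb above, with a share of 42.7% over all genes. For anti-miR-873 BDL against no BDL, 0 of 8 genes were without overlap (18.3% over all genes). Without mouse 2, Retsat and Rbp4 lay below without overlap and Rarb above (32.9% over all genes). Aldh1a2, which entered through the BDL mice, is left out here as well. The share of reads taken by the 20 most abundant genes was 34.6 to 50.2% in no BDL mice and 24.8 to 30.2% in BDL mice. Scaling by library size alone moved the median change of all genes, on the log2 scale, from -0.01 to 0.79 for miR-Ctrl BDL and from -0.01 to 0.82 for anti-miR-873 BDL. Directions below are therefore relative to the bulk of the genes. Under library size alone, Dhrs3 and Cyp26a1 changed sign in both comparisons, and Retsat, Rbp4, Aldh1a1 and Rdh16 in that of anti-miR-873 BDL.

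**Figure D2:**
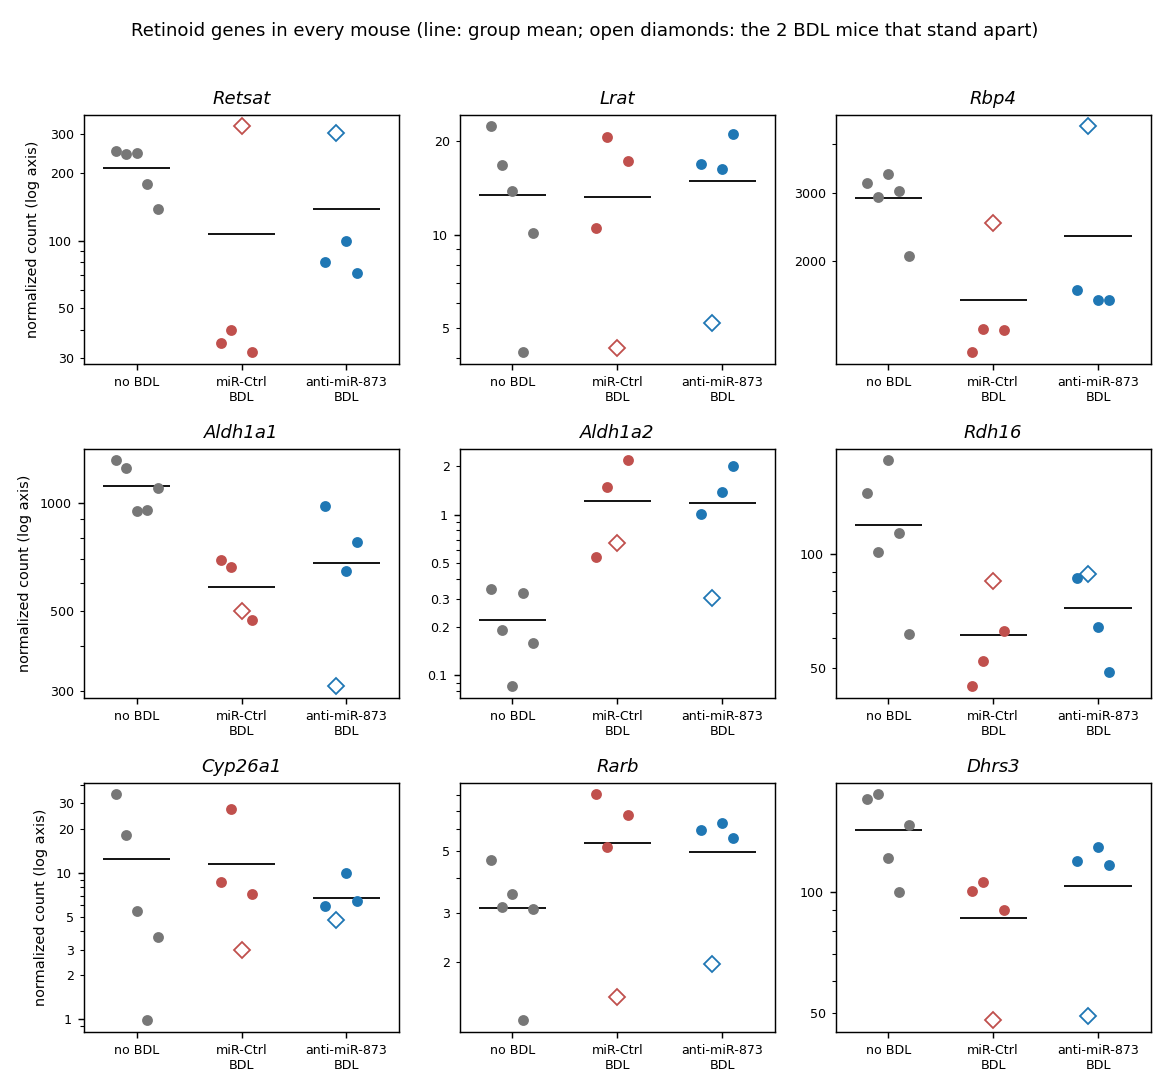
Normalized count of each of the 9 genes in each of 13 mice on a log axis, by group, with the group mean as a line and the 2 BDL mice that stood apart as open diamonds. Retsat and Rbp4 lay below all no BDL mice in the other 6 BDL mice, and Aldh1a2 and Rarb lay above them.

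Retsat, retinol saturase, reduces a double bond of retinol (RefSeq, GRCm38.p6, chr6:72598602-72607488, plus strand). Its normalized counts were 252, 243, 247, 179 and 139 in the no BDL mice. They were 35.1, 39.9, 324 and 31.7 in miR-Ctrl BDL mice 1 to 4 and 80.7, 304, 99.4 and 71.5 in anti-miR-873 BDL mice 1 to 4. The 6 BDL mice other than mouse 3 and mouse 2 all lay below the lowest no BDL mouse, and those 2 mice lay above the highest. The log2 fold change against no BDL was -0.98 (SE 0.68) in miR-Ctrl BDL and -2.57 (SE 0.23) without mouse 3. In anti-miR-873 BDL it was -0.60 (SE 0.42) and -1.32 (SE 0.23) without mouse 2. Of the windows of 50 bases in its transcripts, 14.1% also occur in Gm45053, a transcript on the other strand, and the library kit did not mark strand.

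Rbp4, the retinol carrier of plasma, is secreted by hepatocytes (chr19:38116620-38125321, minus strand). It was at 3186, 2918, 3346, 3033 and 2063 normalized counts without BDL. In miR-Ctrl BDL mice it was at 1162, 1338, 2505 and 1325, and in anti-miR-873 BDL mice at 1683, 4449, 1586 and 1586. As for Retsat, the BDL mice other than mouse 3 and mouse 2 all lay below every no BDL mouse, and mouse 2 was the highest of all 13. Its call as lower in miR-Ctrl BDL was lost in 7 of 9 fits that left out 1 mouse. On the log2 scale the difference from no BDL was -0.87 (SE 0.26) in miR-Ctrl BDL and -0.31 (SE 0.35) in anti-miR-873 BDL. Without the mouse that stood apart these were -1.18 (SE 0.19) and -0.83 (SE 0.21).

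Lrat, lecithin retinol acyltransferase, makes the retinyl esters that stellate cells store (chr3:82892582-82903974, minus strand). Its normalized counts were 22.3, 16.7, 13.8, 4.17 and 10.1 in no BDL mice, 10.5, 20.6, 4.32 and 17.3 in miR-Ctrl BDL mice and 16.9, 5.20, 16.3 and 21.2 in anti-miR-873 BDL mice. The 3 groups overlapped, and each held a mouse near 4 or 5. The log2 fold change against no BDL was 0.003 (SE 0.50) in miR-Ctrl BDL and 0.18 (SE 0.47) in anti-miR-873 BDL. Without mouse 3 and without mouse 2 these were 0.28 (SE 0.43) and 0.45 (SE 0.40).

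Rdh16, a microsomal retinol dehydrogenase of the short-chain family, oxidizes retinol to retinal (chr10:127801090-127815846, plus strand). It had 145, 101, 177, 114 and 61.4 normalized counts without BDL, 44.7, 52.1, 85.0 and 62.6 in miR-Ctrl BDL and 86.5, 88.7, 64.4 and 48.8 in anti-miR-873 BDL. The lowest no BDL mouse, mouse 5, lay inside the range of both BDL groups, and the other 4 no BDL mice lay above all BDL mice. Fitted against no BDL, it was at a log2 fold change of -0.96 (SE 0.29) in miR-Ctrl BDL and -0.71 (SE 0.29) in anti-miR-873 BDL, and -1.16 (SE 0.30) and -0.83 (SE 0.32) without the mouse that stood apart. Of its windows of 50 bases, 14.5% also occur in other genes, 6.28% in Rdh9, so its count may hold reads of near copies. Its call as lower in miR-Ctrl BDL was lost in 5 of 9 fits that left out 1 mouse.

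Dhrs3 reduces retinal back to retinol and is itself induced by retinoic acid (chr4:144892534-144928209, plus strand). Its values were 170.2, 175, 121, 99.9 and 147 in no BDL, 101, 106, 48.0 and 90.2 in miR-Ctrl BDL, and 119.7, 49.3, 129 and 117 in anti-miR-873 BDL mice. Mouse 3 and mouse 2 had the lowest values of all 13, and the other BDL mice overlapped the no BDL mice. The log2 fold change was -0.71 (SE 0.25) in miR-Ctrl BDL and -0.43 (SE 0.28) in anti-miR-873 BDL. Without mouse 3 and without mouse 2 it was -0.52 (SE 0.18) and -0.21 (SE 0.19). In miR-Ctrl BDL, Dhrs3 missed the threshold in edgeR and passed it in DESeq2.

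Aldh1a1, a retinal dehydrogenase abundant in hepatocytes, makes retinoic acid from retinal (chr19:20492583-20643463, plus strand). It was at 1312, 1251, 948, 958 and 1099 normalized counts in no BDL mice, at 696, 665, 501 and 473 in miR-Ctrl BDL mice and at 979.9, 309, 647 and 780.4 in anti-miR-873 BDL mice. All 4 miR-Ctrl BDL mice, mouse 3 included, lay below all 5 no BDL mice. In anti-miR-873 BDL, mouse 1 lay within the no BDL range. On the log2 scale the difference from no BDL was -0.92 (SE 0.18) in miR-Ctrl BDL and -0.69 (SE 0.30) in anti-miR-873 BDL. Without mouse 3 and without mouse 2 it was -0.86 (SE 0.18) and -0.46 (SE 0.19). Its close relative Aldh1a7 shares 3.06% of its windows of 50 bases.

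Aldh1a2 encodes the retinal dehydrogenase of mesenchymal and mesothelial cells (chr9:71215789-71296243, plus strand). It was the least expressed of the 9 genes and was at 0.344, 0.190, 0.0852, 0.327 and 0.159 normalized counts without BDL. In miR-Ctrl BDL mice it was at 0.546, 1.49, 0.665 and 2.18, and in anti-miR-873 BDL mice at 1.01, 0.302, 1.39 and 2.01. All BDL mice but mouse 2 of the anti-miR-873 group lay above every no BDL mouse. The 5 no BDL mice gave 13 reads together, the miR-Ctrl BDL mice 78 and the anti-miR-873 BDL mice 84. The ratio of rates to no BDL was 5.70 (95% exact interval 3.14 to 11.2) and 5.73 (3.18 to 11.2), intervals that cover counting error only. With all 4 BDL mice in the table it fell short of the filter on low counts, which depends on the size of the smaller group. Without mouse 3 and without mouse 2 it passed the filter, with fitted log2 fold changes of 2.62 (SE 0.53) and 2.71 (SE 0.41) that rest on those 13 reads.

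Cyp26a1, a cytochrome P450 that destroys retinoic acid, is induced by it in hepatocytes (chr19:37697738-37701536, plus strand). Its normalized counts were 34.4, 18.2, 5.54, 0.982 and 3.66 in no BDL mice. They were 8.68, 27.3, 2.99 and 7.20 in miR-Ctrl BDL mice and 5.91, 4.75, 9.997 and 6.43 in anti-miR-873 BDL mice. The untreated mice alone spanned a ratio of 35.1 between highest and lowest, the widest of the 9 genes in any group, and all BDL values fell inside that range. Fitted against no BDL, it was at a log2 fold change of -0.08 (SE 0.89) in miR-Ctrl BDL and -0.85 (SE 0.78) in anti-miR-873 BDL. Without the mouse that stood apart these values were 0.22 (SE 0.89) and -0.73 (SE 0.87). Leaving out 1 mouse at a time moved the former between -0.97 (without miR-Ctrl BDL mouse 2) and 0.74 (without no BDL mouse 1), and the latter to -0.03 without no BDL mouse 1.

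Rarb, retinoic acid receptor beta, is a retinoic acid-induced receptor (chr14:16430839-17082331, minus strand). It had 4.65, 3.14, 3.49, 1.23 and 3.10 normalized counts in no BDL mice, 8.02, 5.19, 1.496 and 6.77 in miR-Ctrl BDL mice and 5.98, 1.96, 6.32 and 5.60 in anti-miR-873 BDL mice. The BDL mice other than mouse 3 and mouse 2 lay above every no BDL mouse. The log2 fold change was 0.82 (SE 0.46) in miR-Ctrl BDL and 0.70 (SE 0.40) in anti-miR-873 BDL, and 1.11 (SE 0.33) and 0.95 (SE 0.31) without the mouse that stood apart. Of its windows of 50 bases, 34.1% also occur in other genes, 30.8% in Top2b, a gene on the other strand, so part of its reads cannot be assigned without strand. Its counts also differed slightly between the deposited tables, for example 53 and 54 reads in no BDL mouse 1, as did those of 773 of the 23019 shared genes.

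**Figure D3:**
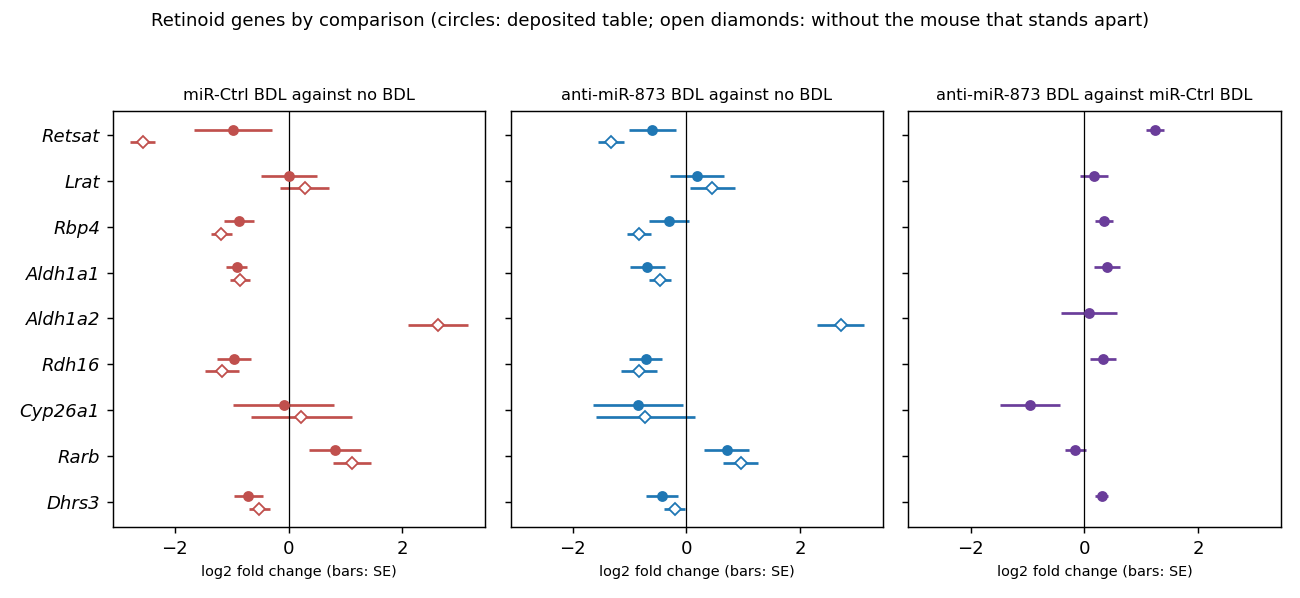
Log2 fold change of the 9 genes in the 3 comparisons, with bars for the SE. Circles use every mouse of the deposited table and open diamonds leave out the mouse that stood apart. The largest shift between circle and diamond is that of Retsat in miR-Ctrl BDL, from -0.98 to -2.57.

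The comparison of anti-miR-873 BDL with miR-Ctrl BDL asks what the inhibitor changed in ligated liver, and its table holds 3 mice per group. EdgeR called 0 of 13746 genes (0%), with 863 genes at an unadjusted p under 0.05 and a lowest adjusted p of 0.757. DESeq2 called 30 genes. Of the 9 genes, all were tested and edgeR called 0, with 2 at an unadjusted p under 0.05, and DESeq2 called 1, Retsat. Groups did not overlap in 3 of the 9 genes, Retsat, Rbp4 and Dhrs3, all higher with the inhibitor, where the share over all genes tested was 11.4%. With the mice that the table leaves out, mouse 3 and mouse 2, all of these overlapped. The log2 fold change of Retsat was 1.24 (SE 0.16), from 35.1, 39.9 and 31.7 to 80.7, 99.4 and 71.5 normalized counts. Over all 4 mice a group the same value was 0.38. Rbp4 was at 0.35 (SE 0.15), Dhrs3 at 0.30 (SE 0.11), Aldh1a1 at 0.39 (SE 0.23) and Rdh16 at 0.33 (SE 0.22). Without anti-miR-873 BDL mouse 1, Aldh1a1 was at 0.22 and Rdh16 at 0.09. Lrat was at 0.17 (SE 0.25) and Aldh1a2 at 0.08 (SE 0.50). Rarb at -0.16 (SE 0.19) and Cyp26a1 at -0.95 (SE 0.52) had the opposite sign, and Cyp26a1 was at -0.09 without miR-Ctrl BDL mouse 2. The signs of Lrat, Aldh1a2 and Rarb turned without miR-Ctrl BDL mouse 1, to -0.06, -0.30 and 0.002. In Rdh16, the gene with the seed match, values of both groups overlapped.

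A list of 56 further retinoid genes in 9 roles, which like the 9 was drawn up with earlier results of these data known, puts them in their pathway. In miR-Ctrl BDL against no BDL 46 were tested, 6 rose and 17 fell (19.1% and 16.6% of all genes), with a median log2 fold change of -0.50 against -0.01 over all genes. In anti-miR-873 BDL 45 were tested, 5 rose and 12 fell (13.1% and 8.44% of all genes), with a median of -0.46. Under library size alone these counts were 18 higher and 5 lower, and 21 higher and 3 lower. That scaling called most genes higher. With the control oligonucleotide 9360 of all 13072 genes tested were higher and 275 lower, and with the inhibitor 10063 of 13130 were higher and 131 lower. As the list was drawn up with earlier results known, nothing is read from its counts, or from those of its roles, against the shares of all genes. Without mouse 3, 5 rose and 19 fell of 46 (22.2% and 20.1% of all genes), and without mouse 2, 6 rose and 13 fell of 46 (18.4% and 13.4% of all genes). Between the BDL groups edgeR called 0 of 46, with 4 at an unadjusted p under 0.05 and a median of 0.10, and DESeq2 called 1. All adjusted p-values in the next paragraphs are Benjamini-Hochberg values of edgeR's quasi-likelihood test over all genes tested, and means are normalized counts ± SD with 5 no BDL mice and 4 mice in each BDL group.

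Among carriers, Ttr, transthyretin, which binds the retinol-binding protein complex in plasma, was at 6266 ± 884 without BDL and fell to 1410 ± 300 in miR-Ctrl BDL (adjusted p = 0.000212) and 1937 ± 801 in anti-miR-873 BDL (adjusted p = 0.00571). No BDL mouse overlapped a ligated one, whether or not mouse 3 and mouse 2 were counted. Stra6l, a liver receptor for retinol-binding protein, was at 185 ± 53.4 without BDL and at 189 ± 9.0002 and 167 ± 22.4 in the BDL groups, and did not pass. Inside cells, Fabp5, a fatty acid carrier that also binds retinoic acid, was at 189 ± 118, 52.3 ± 45.2 and 45.3 ± 57.7 and did not pass. Stra6, Rbp2, Crabp1 and Crabp2 were at 0 in all 5 no BDL mice, which allows up to 3 counts per library, and were not tested.

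Of 7 genes of retinyl ester synthesis and hydrolysis, 1 rose and 3 fell in miR-Ctrl BDL (19.1% and 16.6% of all genes). In anti-miR-873 BDL 1 rose and 2 fell (13.1% and 8.44% of all genes). The carboxylesterases Ces1d and Ces1e, which hydrolyse esters in hepatocytes, fell furthest. Ces1d went from 519 ± 120 to 53.5 ± 19.0 (log2 fold change -3.26, adjusted p = 0.000134) and 91.6 ± 65.6 (-2.48, adjusted p = 0.00431), and Ces1e from 236 ± 71.2 to 40.6 ± 12.99 and 54.1 ± 36.4. Lpl, lipoprotein lipase, rose from 22.4 ± 13.3 to 127 ± 69.3 (adjusted p = 0.00677) and 89.0 ± 35.1 (adjusted p = 0.0121). Its lowest ligated mice were again mouse 3 at 25.2 and mouse 2 at 38.2, both within the no BDL range of 9.82 to 44.6. Lipe, hormone-sensitive lipase, fell in miR-Ctrl BDL from 21.0 ± 7.28 to 10.3 ± 0.784 (adjusted p = 0.00885) and was at 14.1 ± 3.37 in anti-miR-873 BDL, which did not pass. Pnpla2, adipose triglyceride lipase, was at 77.6 ± 21.3, 104 ± 81.1 and 135 ± 131 and did not pass. Its BDL means rest on mouse 3 at 225 and mouse 2 at 331, without which the log2 fold change turned from 0.43 to -0.29 and from 0.81 to -0.14. Of the 3 provitamin A genes tested, Bco2, a carotenoid-cleaving oxygenase, fell in miR-Ctrl BDL (log2 fold change -1.06, adjusted p = 0.0291). Scarb1, a carotenoid and lipoprotein receptor, was at 175 ± 32.4, 223 ± 35.5 and 215 ± 21.8 and did not pass in either comparison.

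Among retinol and retinal dehydrogenases and reductases, 1 rose and 8 fell of 17 tested in miR-Ctrl BDL (19.1% and 16.6% of all genes). In anti-miR-873 BDL 0 rose and 6 fell of 16 (13.1% and 8.44% of all genes). Rdh7, like Rdh16 a microsomal retinol dehydrogenase, fell from 1189.9 ± 146 to 542.5 ± 31.95 (log2 fold change -1.12, adjusted p = 0.000494) and 613 ± 69.4 (-0.94, adjusted p = 0.00575), with mouse 3 at 582 and mouse 2 at 654. Its relatives Rdh1, Rdh16f2 and Rdh19 fell in both comparisons, with log2 fold changes of -0.94, -0.68 and -0.77 in miR-Ctrl BDL and -0.79, -0.49 and -0.82 in anti-miR-873 BDL, and reads of this family can be shared between near copies. Dhrs4, a retinal reductase of peroxisomes, and Adh7, an alcohol dehydrogenase active on retinol, also fell in both. Rdh14 and Adh4 fell in miR-Ctrl BDL, with log2 fold changes of -0.47 and -1.11, and at -0.32 and -0.84 they did not pass in anti-miR-873 BDL, where Rdh14 passed without mouse 2 (log2 fold change -0.42, adjusted p = 0.0191). Dhrs9, a retinol dehydrogenase of epithelia and macrophages, was the member that rose, from 1.57 ± 1.12 to 7.14 ± 2.91 (adjusted p = 0.00955), and it was at 4.62 ± 1.18 in anti-miR-873 BDL, which missed the threshold (adjusted p = 0.0505) and passed it without mouse 2 (log2 fold change 1.69, adjusted p = 0.0372). Adh1, the abundant hepatic alcohol dehydrogenase, was at 2091 ± 253, 1231 ± 554 and 1327 ± 558 and did not pass with all mice, while without mouse 3 it passed as lower in miR-Ctrl BDL (log2 fold change -0.48, adjusted p = 0.0366). Rdh9, Rdh11 and Hsd17b6, the others with a mean above 50, did not pass.

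Of the enzymes that make retinoic acid, Aldh8a1 fell from 332 ± 33.8 to 148 ± 26.7 (adjusted p = 0.000534) and 193 ± 52.9 (adjusted p = 0.0206), and Aox3, an aldehyde oxidase of liver, from 571 ± 352 to 130 ± 53.8 (adjusted p = 0.00687) and 175 ± 95.6 (adjusted p = 0.0450). Aldh1a3, a retinal dehydrogenase of epithelia, was at a very low level, 0.401 ± 0.267, 1.35 ± 0.679 and 1.26 ± 0.561. It had 1 to 8 reads per no BDL mouse and passed the filter through the BDL mice, where it is high. Nothing is therefore read from its calls as higher, which the counts of the 56 include. The call in miR-Ctrl BDL was lost without mouse 3. Aldh1a7 at 309 ± 27.2, 357 ± 56.5 and 294 ± 124 and Aox1 at 81.5 ± 14.7, 71.4 ± 31.1 and 58.3 ± 32.4 did not pass. Cyp2c39, a P450 that hydroxylates retinoic acid, fell from 12.9 ± 4.04 to 5.01 ± 1.53 and 4.96 ± 1.11. Cyp26b1, the relative of Cyp26a1 outside hepatocytes, was at 8.80 ± 9.80, 2.95 ± 1.89 and 2.80 ± 0.724 and did not pass.

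Among nuclear receptors, Rarg rose from 5.796 ± 1.56 to 11.9 ± 2.13 (log2 fold change 1.04, adjusted p = 0.00457) and 11.46 ± 2.56 (1.01, adjusted p = 0.0138). Rxra, the retinoid X receptor of hepatocytes and partner of many receptors, fell in miR-Ctrl BDL from 438 ± 32.2 to 289 ± 29.8 (log2 fold change -0.59, adjusted p = 0.00433) and was at 363 ± 56.0 in anti-miR-873 BDL (-0.25, adjusted p = 0.235). The difference between the BDL groups in Rxra was 0.28 (SE 0.13, adjusted p = 0.781). Rara was at 24.6 ± 1.69, 24.1 ± 4.05 and 27.6 ± 1.63 and did not pass. Rxrb did not pass with all mice and passed as lower in miR-Ctrl BDL without mouse 3 (log2 fold change -0.31, adjusted p = 0.00837). Of 3 known retinoic acid targets tested, Tgm2, transglutaminase 2, rose from 153 ± 75.9 to 734 ± 181 (adjusted p = 0.000721) and 419 ± 148 (adjusted p = 0.0186). Rarres1, a retinoic acid receptor responder, was at 74.3 ± 32.8, 45.1 ± 9.53 and 44.4 ± 22.3 and did not pass, nor did Nrip1.

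**Figure D4:**
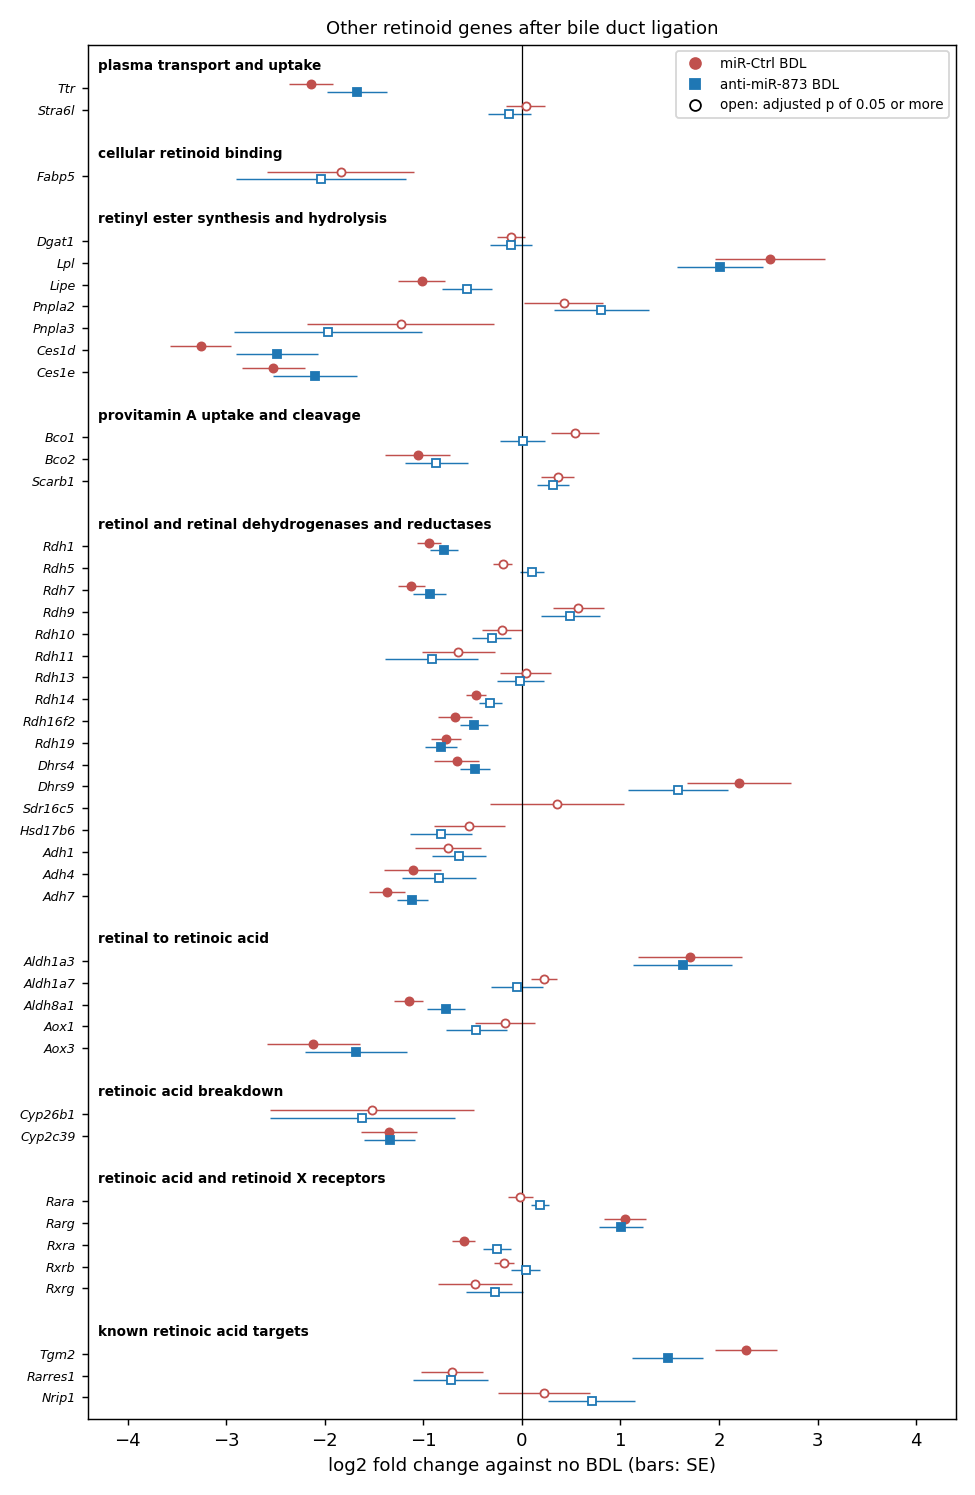
Log2 fold change against no BDL, with bars for the SE, of the further retinoid genes that were tested, with 1 left out, by role, for miR-Ctrl BDL (circles) and anti-miR-873 BDL (squares). Filled symbols passed an adjusted p of 0.05. Ces1d and Ces1e lie furthest to the left, and Lpl, Dhrs9 and Tgm2 furthest to the right in miR-Ctrl BDL.

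Cell type markers moved with the groups, and in whole liver fewer cells of a type and less RNA per cell cannot be told apart. Of all genes tested, 19.1% were called higher and 16.6% lower in miR-Ctrl BDL, and 13.1% and 8.44% in anti-miR-873 BDL. Without the mouse that stood apart these shares were 22.2% and 20.1%, and 18.4% and 13.4%. The marker lists were drawn up with earlier results known, so nothing is read from their counts against these shares. Of 12 hepatocyte markers, 8 fell in miR-Ctrl BDL and 2 in anti-miR-873 BDL, with medians of -0.78 and -0.56, and without the mouse that stood apart 10 and 7 fell. Without mouse 3, Hnf4a, Pck1 and Tat joined those called in miR-Ctrl BDL and Ass1 lost its call. The summed normalized count of the 12 markers, mostly Alb, was between 120840 and 138020 in no BDL mice and between 46420 and 85509.9 in BDL mice other than mouse 2, where it was 108059. Of 11 tested markers of hepatic stellate cells, the cells that store vitamin A, 1 rose and 3 fell in miR-Ctrl BDL and 3 rose and 2 fell in anti-miR-873 BDL, which became 4 and 3, and 5 and 2, without mouse 3 and without mouse 2. Ecm1 and Hhip fell in both comparisons and Angptl6 in miR-Ctrl BDL. Pdgfrb rose in both, and Hgf and Dcn rose in anti-miR-873 BDL. Reln, Ngfr, Des, Colec11 and Rgs5 did not pass in either with all mice. Without the mouse that stood apart, Des and Rgs5 rose in both comparisons and Hgf also in miR-Ctrl BDL. The summed stellate list was between 220.4 and 358 without BDL, 241, 339 and 319 in miR-Ctrl BDL mice other than mouse 3 and 317, 339 and 405 in anti-miR-873 BDL mice other than mouse 2, against 181 in mouse 3 and 229 in mouse 2. Of 9 markers of activated stellate cells and myofibroblasts 7 and 6 rose, of 8 of portal fibroblasts and mesothelium 7 and 7, and of 8 of cholangiocytes 7 and 7. Without the mouse that stood apart these counts were 8 and 8, 8 and 8, and 7 and 8. Among the genes counted, Msln, Upk3b and Upk1b were at 0 or 1 read per no BDL mouse, and Wt1, Timp1 and Lox at no more than 4. Gpm6a was at 3 to 22 reads there, with a median of 0.511 normalized counts, and Thy1 at 4 to 14 reads. All of these genes passed the filter through the BDL mice, so nothing is read from their calls as higher. The cholangiocyte sum, in which Spp1 was the most abundant gene, was between 70.6 and 159 without BDL, 510 in mouse 3, 253 in mouse 2 and between 1152 and 1764 in the other BDL mice. Spp1 made up 49.3 to 75.9% of this sum without BDL, 78.9% in mouse 3 and 76.6% in mouse 2. In the other BDL mice it made up 90.2 to 94.6%, so there the sum is mostly a measure of Spp1. The sinusoidal endothelial sum was lowest of all mice in mouse 3 at 50.9 and next in mouse 2 at 92.9. Of its 7 markers 1 fell in each comparison, Oit3 in miR-Ctrl BDL, with Kdr added without mouse 3, and Kdr in anti-miR-873 BDL. Of 9 macrophage markers 6 rose in miR-Ctrl BDL and 3 in anti-miR-873 BDL, or 7 and 4 without the mouse that stood apart. Marco lost its call in anti-miR-873 BDL without mouse 2. The neutrophil sum was 213 in mouse 3 and between 8.31 and 53.6 in the other BDL mice. The 3 and 2 neutrophil markers tested were all called higher, but they passed the filter through the BDL mice, so nothing is read from this. In no BDL mice Mpo was at 0 to 4 reads, and S100a8 and S100a9 had medians of 0.256 and 0.431 normalized counts. Of 6 lymphocyte markers 2 and 1 were tested, and 1 and 0 were called, the former lower. Without the mouse that stood apart 4 and 4 were tested, with 1 and 0 called. Of the 7 pancreas and adipose markers, none passed the filter with all mice, and all 7 were at 0 in the miR-Ctrl BDL mice. Without mouse 3 or without mouse 2 Cfd, an adipose gene, passed the filter through the no BDL mice, at 1 to 79 reads against 0 or 1 in BDL mice, and was called lower. The part of these cell types in the values of the 9 genes was not tested.

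**Figure D5:**
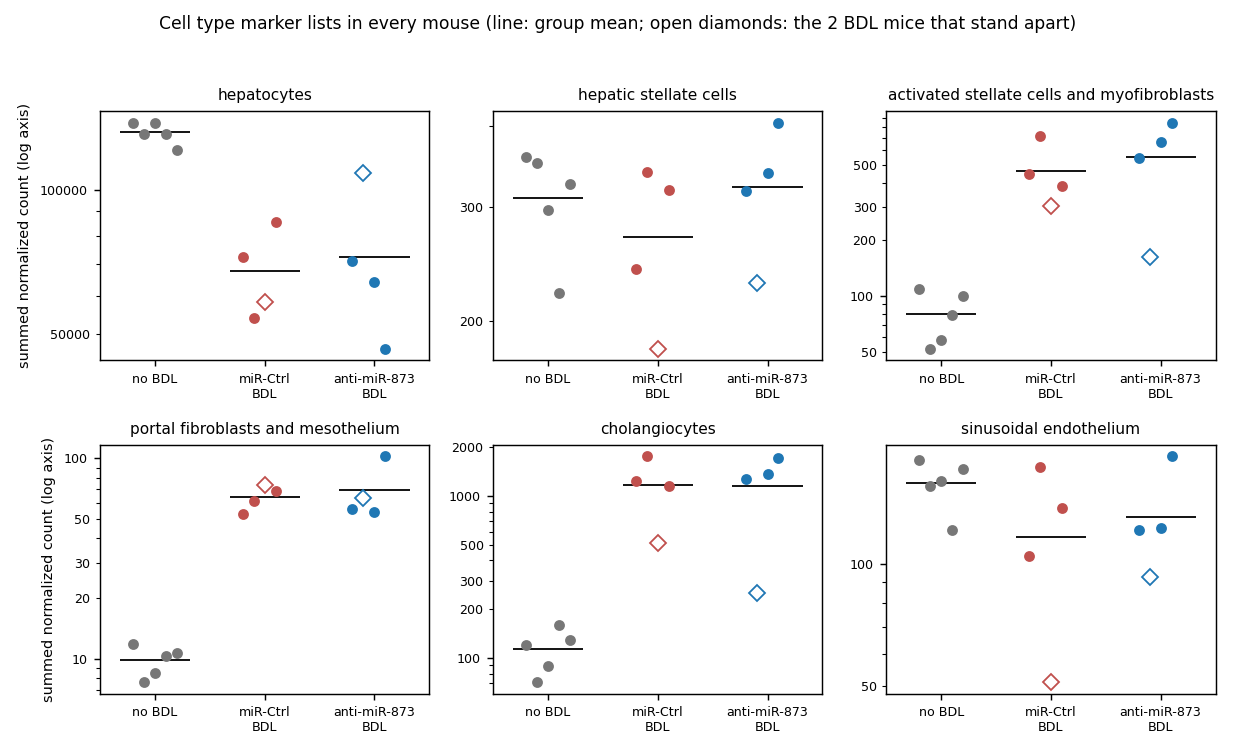
Summed normalized count of 6 lists of cell type markers in each of 13 mice on a log axis, by group, with the group mean as a line and the 2 BDL mice that stood apart as open diamonds. Mouse 3 and mouse 2 lie below the other BDL mice in the stellate, activated stellate, cholangiocyte and endothelial lists.

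For each of the 9 genes the most alike genes were taken as those with the smallest root mean square difference of centred log2 normalized counts over the 13 mice among 12967 or 12968 genes, which describes a pattern and not a shared function. Rbp4 had the closest partners, Apoc4 at 0.16, an apolipoprotein of hepatocytes, and Cyp2d26 at 0.17. Aldh1a1 was closest to Ulk2 and Fggy at 0.20 and 0.21, and Rdh16 to Rmnd5a and Narf, both at 0.20. Dhrs3 was closest to Flt1, an endothelial receptor of vascular growth factors, at 0.19 and to Prkra at 0.23. Lrat was closest to Dennd2a and to Gucy1b1, a guanylate cyclase subunit found in stellate cells, both at 0.34. Rarb was closest to Dpysl2 and Notch1 at 0.31 and 0.35, and Aldh1a2 to Pcdh7 at 0.41 and 6530402F18Rik at 0.42. Retsat was closest to Pim3 at 0.43 and Eci3, a peroxisomal isomerase, at 0.49. Cyp26a1 had no close partner, with Jun at 0.79 and Lrat at 0.81 against its own SD of 1.32.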

How the data were processed

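Livers of 13 mice were analysed. According to the labels and the study's methods, the authors extracted RNA with TRIZOL, made TruSeq RNA v2 libraries, sequenced single reads of 50 nt and mapped them to mm10 with TopHat. The submitters' processing notes also name CASAVA 1.8.2, FastQC, Trim Galore and DESeq2. The authors deposited raw counts per Entrez gene in 3 tables, 1 per comparison, and the table of the BDL groups holds 3 mice of each. The counting program and annotation are not given in the sources used here. The tables hold 0 columns that were left out. Depth was 12185333 to 19689037 counts per mouse, and intervals cover counting error only.

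Counts were compared per table with edgeR 4.0.16 in R 4.3.3 (filterByExpr, TMM, quasi-likelihood test, Benjamini-Hochberg adjustment, threshold 0.05), and with DESeq2 1.42.0 as an alternative. The SE was taken as the size of the log2 fold change over the root of its F statistic. Levels of all 13 mice were scaled by TMM over the 22246 genes whose counts did not differ between tables. Symbols, starts and ends came from RefSeq and exon lengths, shared 50-base windows and 3′ UTRs from GENCODE M21. Log2 levels for the search of alike genes used a prior count of 2. Each mouse is a separate animal by its label. The fits were tested on simulated data in which few genes changed. Of changes of 1.5 times, edgeR recovered 8.96% in miR-Ctrl BDL and 2.99% in anti-miR-873 BDL, each against no BDL, and 0% between the BDL groups. At 2 times it recovered 55.2%, 37.3% and 40.3%, and at 4 times 83.3%, 87.9% and 87.9%. A gene without a call may therefore still have changed.

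The 9 genes and all lists were chosen with earlier results of these data known. Named are the 9 genes, listed genes past the threshold in a comparison with no BDL or with a mean above 50 normalized counts, and the 2 genes most alike each member. One listed retinoid gene, which the counts include, is not reported here.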

Additional observations from a re-analysis of the deposited data

Results flagged for a closer look

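The highest or lowest mouse of a group was set against the others by Dixon's ratio, the gap to the nearest mouse divided by the range of the group, in 27 sets (9 genes in 3 groups), of which chance alone passes about 1 in 20. Both mice that the table of the BDL groups leaves out passed the 95% limit. For Retsat, mouse 3 of miR-Ctrl BDL was the highest with a ratio of 0.972, and mouse 2 of anti-miR-873 BDL the highest with 0.880. For Rbp4, the ratios of the same mice, again the highest, were 0.869 and 0.966. For Rarb and Dhrs3, mouse 2 of anti-miR-873 BDL was the lowest, with 0.833 and 0.846. No set of the no BDL group passed.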

How the results depend on the processing

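Main counts of called genes were 4666, 2823 and 0 of all genes, 3, 0 and 0 of the 9 and 23, 17 and 0 of the 56, in the order miR-Ctrl BDL, then anti-miR-873 BDL (each against no BDL), then both BDL groups. Scaling by library size alone called 9635 and 10194 genes against no BDL, 97.1% and 98.7% of them higher in place of 53.4% and 60.8%, and 1 and 1 of the 9 (Rarb). With genes of a mean of at least 10 counts, 5 and 1 of the 9 were called (36.1% and 22.1% of all genes), with all genes of at least 1 count 1 in anti-miR-873 BDL (16.2%), and with all 3 groups in 1 fit (where Rarb was not fitted) 1 there (24.3%). In that fit 3 were called in miR-Ctrl BDL (34.6%), with Aldh1a2 in and Rbp4 out. Aldh1a2, which enters through the BDL mice, was among those called each time. DESeq2 called 30 genes between the BDL groups, 1 of the 9 and 1 of the 56. With the mouse number as a replicate block, 5 and 1 of the 9 were called against no BDL, beside 31.1% and 16.7% of all genes. Same-numbered mice did not deviate together (correlations of -0.20 to 0.35), so the numbers were not taken as pairs. The block moved no other count by over 1.5 times. Leaving out 1 mouse at a time called 1 to 7 of the 9 in miR-Ctrl BDL against no BDL (7 without miR-Ctrl BDL mouse 3, 1 without no BDL mouse 1), beside 3775 to 5710 of all genes. In anti-miR-873 BDL it called 0 to 4 of the 9 (4 without anti-miR-873 BDL mouse 2), 1261 to 4317 of all genes (1261 without anti-miR-873 BDL mouse 3, 4317 without its mouse 2) and 9 to 22 of the 56. Between the BDL groups it called 0 to 1 of all genes. The counts of 7 and 4 each include Aldh1a2, which the Results leave out because it passed the filter through the BDL mice alone. Of 378 alternative log2 fold changes of the 9 genes, 349 moved by less than the SE, 29 by more, and 0 called ones changed sign. The depth limits Aldh1a2 and Rarb, at 1 to 4 and, over both comparisons with no BDL, 14 to 54 reads per no BDL mouse.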
